A study of Mus musculus with 15 samples.

Results

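Steroid and orphan nuclear receptors are described here in the pituitary of newborn mice, over 31 receptor genes listed by name. The array measured 30 of them, out of 18193 genes measured in all, and Nr1h2 is not analysed here. RNA pools came from Prop1df/df pituitaries, of strain background DF/B, from Pit1dw/dw pituitaries, of DW/J, and from Pit1+/+ pituitaries, also of DW/J, all at the newborn stage P1 and with 5 pools in each group. Pit1 (Pou1f1) encodes a POU-domain factor needed for the growth hormone, prolactin and thyrotropin cells, and dw is its Snell dwarf allele. Every mouse was fed the same high-fat chow, and neither the number of pituitaries per pool nor their sex is given. Wild-type pools of strain DF/B are not analysed here, so in each comparison of Prop1df/df with a DW/J group the genotype and the strain cannot be told apart. Signal is given as log2 of the authors' RMA value, and a change is a difference between group means on that scale.

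Nuclear receptors are transcription factors, many of which are switched by a small fat-soluble ligand such as a steroid, a vitamin or a lipid. After binding DNA they recruit coactivators or corepressors, which set the output of the target gene. In the pituitary they carry the feedback of adrenal and gonadal steroids onto the hormone-producing cells, and orphan receptors, which have no settled ligand, act in stress responses, daily rhythm and cell fate.

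Some pools stood apart from their group. Gh, the growth hormone gene, had signals of 13.58, 14.07, 14.03, 8.99 and 10.24 in Prop1df/df pools 1 to 5, against 14.15 to 14.28 in Pit1+/+ pools, so that 3 Prop1df/df pools lay close to Pit1+/+. The thyrotropin gene Tshb was also higher in those 3 pools, at 9.68 to 9.89, than in the other 2, at 6.28 and 7.17. It stayed below its Pit1+/+ mean of 11.91 ± 0.24 (SD) in all of them. Pax7, a melanotroph marker, lay between 5.45 and 6.22 in all 5 Prop1df/df pools, against 7.95 to 8.47 in Pit1+/+ pools. Results on Prop1df/df are therefore also given without pools 1, 2 and 3, which leaves 2 pools. In Pit1dw/dw, all 5 measured Pit1-lineage genes (Gh, Prl, Tshb, Ghrhr and Trhr) passed the test as lower than in Pit1+/+. Prl lay below the array's median signal of 4.37 in all groups, so no fall is read from it. The mean signal of the 5 spanned 5.05 to 5.72, against 9.09 to 9.68 in Pit1+/+. In Prop1df/df 4 of the 5 passed, all but Gh (-2.04, limma adjusted p = 0.165), again with no fall read from Prl, and the mean spanned 5.39 to 7.85. Without pools 1, 2 and 3 Gh fell too, at -4.61 (adjusted p = 0.0018). Pit1+/+ pool 1 carries a genotype label at odds with its title and strain and was placed by its title. The nerve gene Prph was above 7 in Prop1df/df pools 3 and 4, Pit1dw/dw pools 2 and 3 and Pit1+/+ pool 3, and bone genes varied between pools, as given with Vdr.

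Across the receptor set, 1 of 30 receptors changed in Pit1dw/dw relative to Pit1+/+ (Vdr, lower), where 0.770% of all genes changed, 0.165% higher and 0.605% lower. In Prop1df/df relative to Pit1+/+, 6 of 30 changed, with 2 higher (Nr2e1 and Nr3c1) and 4 lower (Esr1, Nr3c2, Nr4a2 and Nr4a3), where 10.6% of all genes changed, 3.25% higher and 7.31% lower. Between Prop1df/df and Pit1dw/dw 5 of 30 changed, with 3 higher in Prop1df/df (Nr2e1, Vdr and Nr3c1) and 2 lower (Esr1 and Nr4a3), where 6.26% of all genes changed, 2.21% higher and 4.05% lower. That count was 2 without Prop1df/df pool 1, Pit1dw/dw pool 1 or Pit1dw/dw pool 2. Of all 18193 genes, 870, 997 and 847 then changed, rather than 1139. In Prop1df/df relative to Pit1+/+ 10 receptors rather than 6 passed without Pit1+/+ pool 5, where 3258 genes passed rather than 1920. A gene is said to have changed where the Benjamini-Hochberg adjusted p from limma over all genes was under 0.05. Without Prop1df/df pools 1, 2 and 3, the count was 2 of 30 against Pit1+/+ (Nr2e1 and Esr1) and 1 of 30 against Pit1dw/dw (Nr2e1). Over all 18193 genes the counts were then 890 against Pit1+/+ and 503 against Pit1dw/dw. The first 2 comparisons share the Pit1+/+ arrays, so their values are set side by side only. Because RNA was taken from whole pituitaries, fewer cells of a type and less RNA per cell cannot be told apart.

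The groups did not overlap for 4 receptors between Prop1df/df and Pit1+/+ (Nr2e1 and Ppara higher, Nr3c2 and Esr1 lower), where 8.01% of all genes did not overlap, 2.56% higher and 5.45% lower. Between Prop1df/df and Pit1dw/dw 3 receptors did not overlap (Nr2e1 higher, Esr1 and Esrrb lower), where the share of all genes was 8.50%, 3.00% higher and 5.51% lower. In Pit1dw/dw relative to Pit1+/+ all 30 overlapped (0 receptors apart), where the share of all genes was 2.78%, 0.863% higher and 1.91% lower. There 3 of the 30 receptors had an unadjusted limma p under 0.05 (Vdr, Nr3c2 and Esrrb), against 8.46% of all genes. The median change over the 30 receptors was -0.01 in Pit1dw/dw and 0.04 in Prop1df/df, each relative to Pit1+/+, and -0.001 between Prop1df/df and Pit1dw/dw. Over all genes the same medians were -0.02, -0.039 and -0.021.

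**Figure D1:**
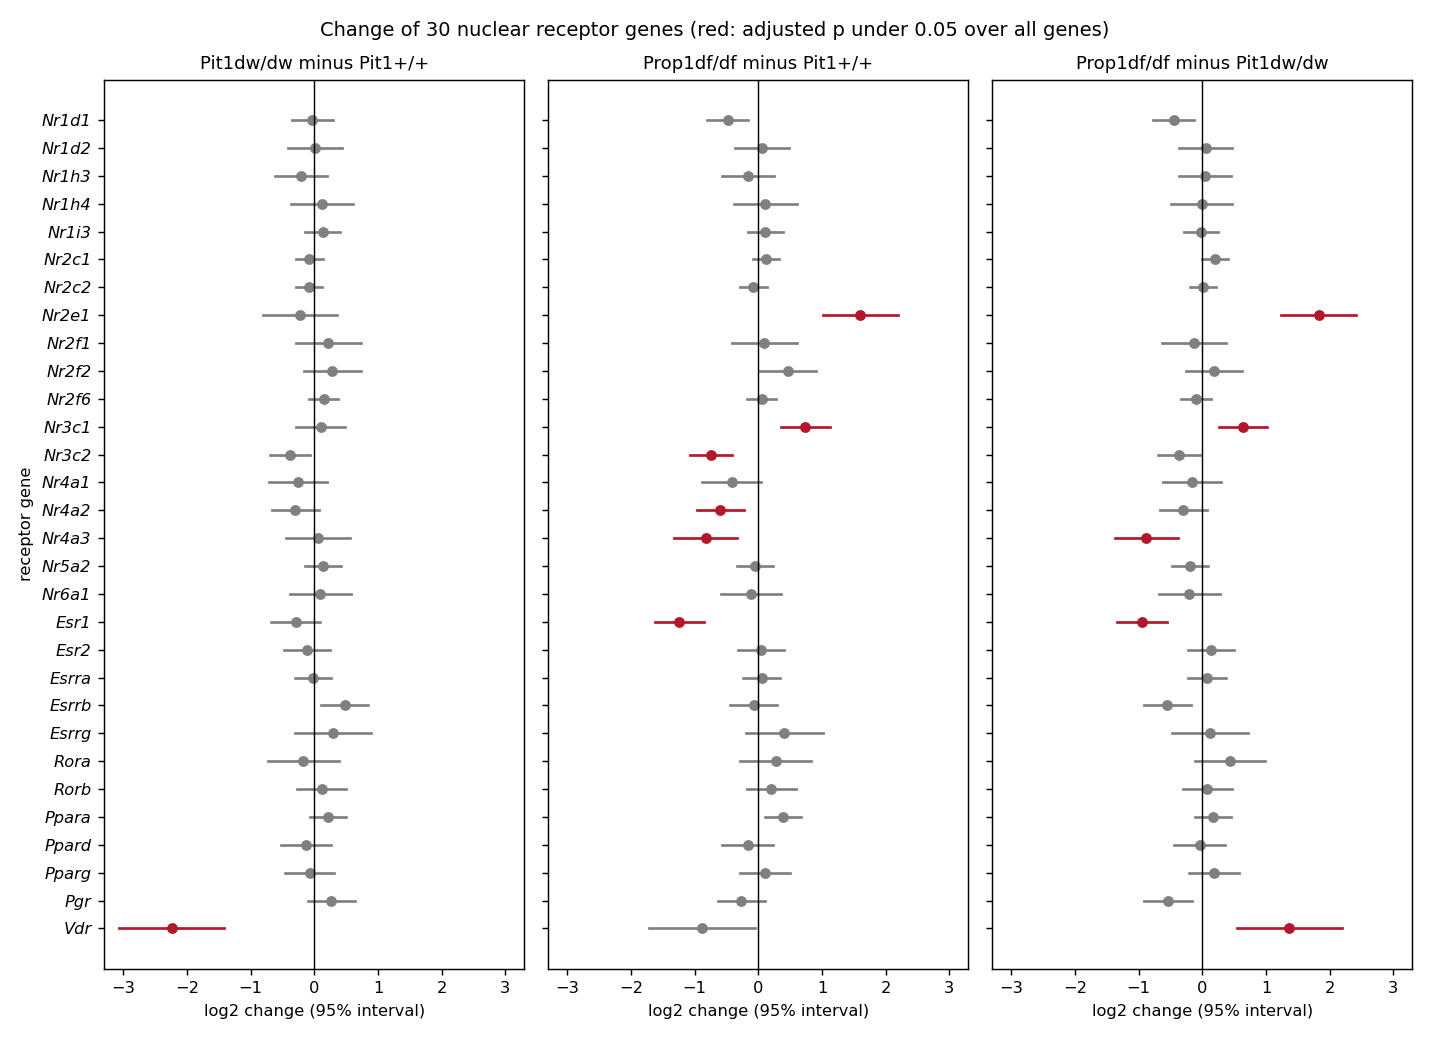
Change of each of the 30 measured receptors in the 3 comparisons, as a log2 difference (x axis) with its 95% interval, one receptor per row. Red marks the 1, 6 and 5 receptors that passed the test, and Vdr in Pit1dw/dw, at -2.24, lies farthest from 0.

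Promoter sequence is shown for 4 of the receptors that changed, because short motifs can be compared between them. Each is the 250 bases before a RefSeq start site on build GRCm38.p6, which is not always the gene's outermost start. It is read 5′ to 3′ on the gene's own strand, with capitals on every motif match on either strand.
Nr2e1: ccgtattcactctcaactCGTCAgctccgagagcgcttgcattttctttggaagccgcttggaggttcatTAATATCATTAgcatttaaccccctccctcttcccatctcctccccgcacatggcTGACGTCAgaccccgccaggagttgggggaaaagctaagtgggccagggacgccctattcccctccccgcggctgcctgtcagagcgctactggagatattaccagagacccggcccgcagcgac
Vdr: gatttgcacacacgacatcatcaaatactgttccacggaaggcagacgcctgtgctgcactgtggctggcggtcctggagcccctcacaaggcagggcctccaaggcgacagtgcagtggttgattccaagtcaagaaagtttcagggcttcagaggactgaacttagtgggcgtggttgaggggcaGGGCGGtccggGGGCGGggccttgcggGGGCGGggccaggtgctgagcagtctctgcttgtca
Nr4a2: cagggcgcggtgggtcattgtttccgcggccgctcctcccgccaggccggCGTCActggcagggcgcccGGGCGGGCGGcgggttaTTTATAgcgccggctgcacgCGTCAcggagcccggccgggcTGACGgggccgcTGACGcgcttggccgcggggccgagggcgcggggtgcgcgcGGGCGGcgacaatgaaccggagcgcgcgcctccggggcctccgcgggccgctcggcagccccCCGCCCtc
Nr4a3: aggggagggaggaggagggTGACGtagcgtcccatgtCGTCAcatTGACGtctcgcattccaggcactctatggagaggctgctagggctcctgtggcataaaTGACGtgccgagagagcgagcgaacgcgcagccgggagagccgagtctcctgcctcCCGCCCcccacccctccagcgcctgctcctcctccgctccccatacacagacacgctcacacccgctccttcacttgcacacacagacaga
The Nr2e1 window (chr10:42583591-42583840, minus strand) held a paired-type homeodomain palindrome (TAAT and ATTA set 3 bases apart, here TAATATCATTA) at -180, counted from the start site, and 0.463% of 32851 mouse promoter windows of that length hold such a palindrome. It also held CRE core motifs (TGACG, in 17.8% of windows) at -232, -125 and -122, of which the last 2 overlap as TGACGTCA. The Nr4a2 window (chr2:57124004-57124253, minus strand) and the Nr4a3 window (chr4:48045055-48045304, plus strand) each held 4 CRE core motifs. In the Nr4a2 window a TATA box (TATAAA, in 12.4% of windows) lay at -164, beside 4 GC boxes (GGGCGG, in 32.7%), of which the first 2 overlap. The Nr4a3 window held 1 GC box, and the gene's outermost annotated start (chr4:48045078) lies inside this window, near its upstream end. In Vdr (chr15:97908297-97908546, minus strand) the matches were 3 GC boxes at -63, -52 and -36. None of these 4 windows held the POU-type element ATGNATA (in 7.92% of windows), the nuclear receptor core motif AGGTCA (in 14%) or the E-box CACGTG (in 6.02%). Of 30 measured receptors 29 had a RefSeq window. Motif matches were not listed for Nr3c1, which also changed. Both Esr1 windows, of which the downstream one lies past the gene's outermost annotated start, held none of the motifs (0 matches). The Nr3c2 window, which also lies past that gene's outermost annotated start, held 3 GC boxes. A match is a run of letters and was not tested as a binding site, and a window without one says nothing about a factor.

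Vdr, the receptor for active vitamin D, was the receptor lower in Pit1dw/dw. Its signal was 5.03, 4.61, 4.76, 4.81 and 6.62 in Pit1dw/dw pools 1 to 5, against 7.58, 7.09, 6.57, 8.15 and 7.64 in Pit1+/+ pools. Pools 1 to 4 of Pit1dw/dw lay below every Pit1+/+ pool, and pool 5 lay just above the lowest. The means were 5.16 ± 0.83 in Pit1dw/dw and 7.41 ± 0.60 in Pit1+/+ (SD, n = 5 each), a change of -2.24 (SE 0.39, 95% interval -3.07 to -1.42, limma adjusted p = 0.0095), or 4.74-fold lower. Prop1df/df pools had Vdr at 6.89, 5.89, 7.06, 5.82 and 6.98, between the other groups on average, at 6.53 ± 0.62. That was -0.88 relative to Pit1+/+ (95% interval -1.71 to -0.05, adjusted p = 0.175), which did not pass. Against Pit1dw/dw it was 1.36 higher (95% interval 0.54 to 2.19, adjusted p = 0.0492), 2.58-fold, which was 1.24 with adjusted p = 0.313 without Prop1df/df pools 1, 2 and 3. The difference between Pit1dw/dw and Pit1+/+ was -2.61 without Pit1dw/dw pool 5 (adjusted p = 0.00125), and the call was lost without the pools of high Prph (-2.13, adjusted p = 0.0925).

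Vdr is also made by bone-forming cells, and bone genes varied between pools of every group. Ibsp, a bone matrix gene, had signals of 9.92, 7.50, 9.86, 7.61 and 10.79 in Prop1df/df pools 1 to 5, 7.84, 6.94, 4.52, 4.09 and 10.07 in Pit1dw/dw pools, and 9.69, 3.03, 3.13, 9.48 and 8.75 in Pit1+/+ pools. In each group the pools with the highest Ibsp also had the highest Vdr: pools 1, 3 and 5 of Prop1df/df, pool 5 of Pit1dw/dw and pools 1, 4 and 5 of Pit1+/+. Pit1dw/dw pools 1 to 4 had Vdr at 4.61 to 5.03 and Ibsp at 4.09 to 7.84, against Vdr at 7.09 and 6.57 and Ibsp at 3.03 and 3.13 in Pit1+/+ pools 2 and 3. The mean signal of the 5 measured of 7 bone and cartilage genes spanned 7.19 to 8.77 in Prop1df/df, 5.99 to 7.93 in Pit1dw/dw and 4.40 to 7.75 in Pit1+/+. Of the 5, the cartilage gene Col2a1 passed, at 1.84 higher in Prop1df/df than in Pit1+/+ (adjusted p = 0.00463), and none passed in Pit1dw/dw relative to Pit1+/+. With that mean as a covariate, a setting added after the values were seen, the Vdr change was -2.27 in Pit1dw/dw relative to Pit1+/+ (adjusted p = 0.000702) and -1.63 in Prop1df/df relative to Pit1+/+ (adjusted p = 0.00935). Between Prop1df/df and Pit1dw/dw it was 0.64 under the same setting (adjusted p = 0.43). The mean used as the covariate itself differed by group, with medians of 8.01 in Prop1df/df, 6.39 in Pit1dw/dw and 7.01 in Pit1+/+. This setting therefore cannot separate bone tissue from group, and the part of bone tissue in the Vdr differences was not tested. The second Vdr probe set, which lay below the array's median signal in every group, changed by -0.57 in Pit1dw/dw relative to Pit1+/+ and did not pass.

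**Figure D2:**
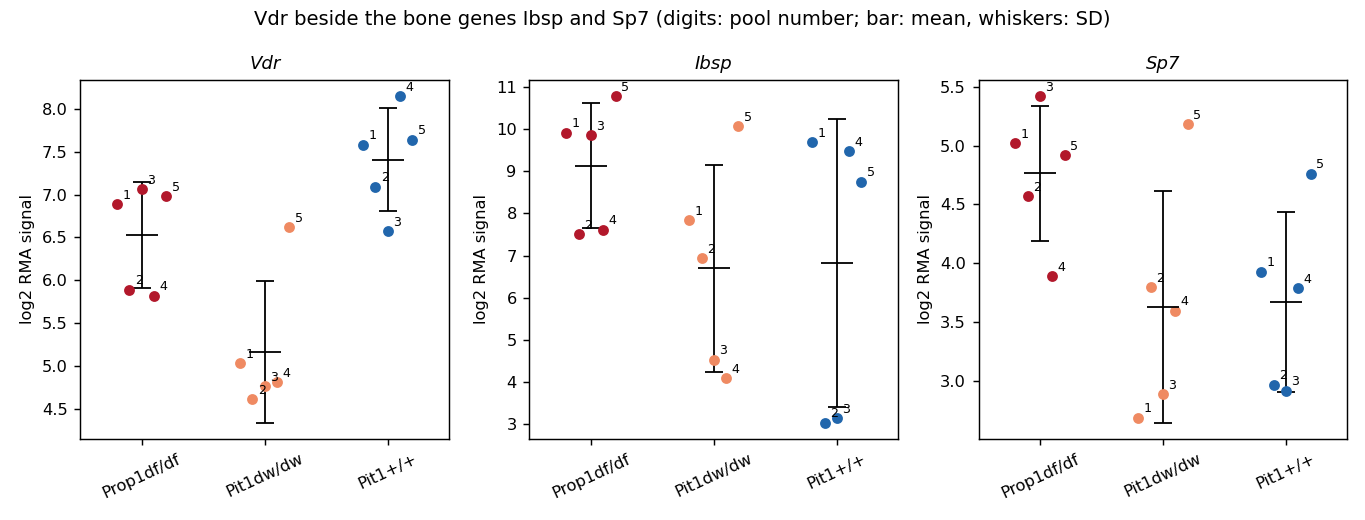
Signal of Vdr, the bone matrix gene Ibsp and Sp7, a transcription factor gene of bone-forming cells, in each RNA pool, with the pool number beside each point, bars at the group mean and whiskers of 1 SD (y axes, log2 RMA signal). Pit1dw/dw pool 5 is highest of its group in all 3 panels, at 6.62, 10.07 and 5.18.

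Esr1, which encodes estrogen receptor alpha, was lower in Prop1df/df than in both other groups. The signal was 6.60, 6.86, 7.0, 7.14 and 6.70 in Prop1df/df pools 1 to 5, 8.06, 7.42, 7.54, 8.18 and 7.84 in Pit1dw/dw pools, and 8.07, 8.49, 7.93, 8.38 and 7.63 in Pit1+/+ pools. All 5 Prop1df/df pools lay below all 10 others. The means were 6.86 ± 0.22 in Prop1df/df, 7.81 ± 0.33 in Pit1dw/dw and 8.10 ± 0.34 in Pit1+/+ (SD, n = 5 each). Relative to Pit1+/+ the change was -1.24 in Prop1df/df (95% interval -1.63 to -0.85, limma adjusted p = 0.000388), 2.36-fold lower, and -0.29 in Pit1dw/dw (95% interval -0.68 to 0.09, adjusted p = 0.743), which did not pass. Directly, Prop1df/df minus Pit1dw/dw was -0.95 (adjusted p = 0.00417). Without Prop1df/df pools 1, 2 and 3 the changes were -1.18 relative to Pit1+/+ (adjusted p = 0.0202) and -0.89 relative to Pit1dw/dw (adjusted p = 0.107). With the bone covariate the second of these comparisons was also lost (-0.85, adjusted p = 0.0529). The other 2 Esr1 probe sets changed by -0.60 and -0.08 relative to Pit1+/+, neither past the threshold.

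Some markers of gonadotrophs, which make the gonadotropins, were lower in Prop1df/df as Esr1 was. Of 6 genes, 3 fell relative to Pit1+/+ (Lhb at -3.31, Fshb at -2.72 and Cga at -1.53), and 3 did not pass (Gnrhr at 0.33, Nr5a1 at 0.30 and Foxl2 at -0.34). In Pit1dw/dw relative to Pit1+/+, where Esr1 was -0.29, Gnrhr (1.49) and Nr5a1 (1.38) rose and 4 did not pass. Relative to Pit1dw/dw 5 of the 6 fell in Prop1df/df, all but Fshb. Of these 5, Cga still passed without Prop1df/df pools 1, 2 and 3 (-1.37, limma adjusted p = 0.014), and Lhb, Gnrhr, Nr5a1 and Foxl2 did not. The mean signal of the 6 spanned 6.15 to 7.12 in Prop1df/df, 7.47 to 8.82 in Pit1dw/dw and 7.57 to 8.57 in Pit1+/+. Of 2 measured melanotroph genes both were lower in Prop1df/df (Pax7 at -2.28 and Drd2 at -1.60, relative to Pit1+/+), with a mean of 5.10 to 5.70 in Prop1df/df, against 6.99 to 7.79 in Pit1+/+. Cga, Pax7 and Drd2 still passed relative to Pit1+/+ without Prop1df/df pools 1, 2 and 3, and Lhb (-3.51) and Fshb (-3.04) did not. The part of these cell types in the Esr1 difference was not tested. Esr2, which encodes estrogen receptor beta, lay below the median signal of the arrays (4.37) in all groups, at 2.89 to 3.79 over the 15 pools. Pgr, the progesterone receptor gene and itself an estrogen target, had 5.61, 6.12, 5.77, 5.27 and 6.31 in Prop1df/df pools, against 6.71, 6.43, 6.21, 6.14 and 6.27 in Pit1dw/dw pools, and 5.87 to 6.34 in Pit1+/+ pools. Its difference between Prop1df/df and Pit1dw/dw was -0.54 (adjusted p = 0.0877), which did not pass. Of 7 measured estrogen and progesterone targets, Pgr among them, 1 passed in Prop1df/df, the neuropeptide gene Gal. Gal had 4.12, 5.38, 6.68, 6.23 and 5.88 in Prop1df/df pools, against 7.05 to 8.07 in Pit1dw/dw pools and 6.41 to 7.58 in Pit1+/+ pools, with changes of -1.82 relative to Pit1dw/dw (adjusted p = 0.00743) and -1.46 relative to Pit1+/+ (adjusted p = 0.0209). Gal without Prop1df/df pools 1, 2 and 3 was -1.06 relative to Pit1+/+ (adjusted p = 0.0787) and -1.43 relative to Pit1dw/dw (adjusted p = 0.0287). The median change of these 7 targets was -0.10 in Prop1df/df relative to Pit1+/+.

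Nr3c1 and Nr3c2 encode the glucocorticoid and the mineralocorticoid receptor, both of which bind adrenal steroids. The 1 probe set used for each moved in opposite directions in Prop1df/df relative to Pit1+/+, which the other Nr3c1 probe sets did not share. Nr3c1 had signals of 9.76, 9.84, 9.15, 9.61 and 9.52 in Prop1df/df pools 1 to 5, 8.79, 9.13, 8.62, 8.91 and 9.22 in Pit1dw/dw pools, and 8.70, 9.16, 8.35, 8.74 and 9.24 in Pit1+/+ pools. The groups overlapped only through Prop1df/df pool 3, which lay below the highest pool of each other group. Nr3c1 rose by 0.74 relative to Pit1+/+ (95% interval 0.36 to 1.12, limma adjusted p = 0.0143), 1.67-fold, and by 0.64 relative to Pit1dw/dw (adjusted p = 0.0452). This rested on 1 of 6 probe sets: the other 5 changed by -0.26 to 0.10 relative to Pit1+/+ and none passed. With the mean of all 6 the change was 0.09 (adjusted p = 0.644), and without Prop1df/df pools 1, 2 and 3 it was 0.73 (adjusted p = 0.108). In Pit1dw/dw relative to Pit1+/+ it was 0.10 (adjusted p = 0.96).

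Nr3c2 had 5.09, 5.64, 5.28, 5.49 and 5.68 in Prop1df/df pools, 5.68, 5.90, 5.53, 5.88 and 6.0 in Pit1dw/dw pools, and 6.10, 6.58, 5.79, 6.22 and 6.21 in Pit1+/+ pools. Every Prop1df/df pool lay below every Pit1+/+ pool, and Pit1dw/dw pools overlapped both. The change in Prop1df/df relative to Pit1+/+ was -0.74 (95% interval -1.07 to -0.42, limma adjusted p = 0.00479), 1.68-fold lower. It was -0.60 without Prop1df/df pools 1, 2 and 3 (adjusted p = 0.113). Pit1dw/dw relative to Pit1+/+ was -0.38 (95% interval -0.70 to -0.06, adjusted p = 0.466), and Prop1df/df relative to Pit1dw/dw was -0.36 (adjusted p = 0.192), neither of which passed. Nr3c2 had 1 probe set.

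Genes of corticosteroid production and metabolism and the genes that glucocorticoids raise were measured beside these receptors. Hsd11b1, which regenerates active glucocorticoid inside cells, had 5.91, 7.06, 6.57, 6.79 and 6.72 in Prop1df/df pools, 7.91, 8.24, 7.58, 8.07 and 8.27 in Pit1dw/dw pools, and 7.53, 8.25, 7.24, 8.0 and 7.57 in Pit1+/+ pools, so that every Prop1df/df pool lay below all others. Its change was -1.11 relative to Pit1+/+ (adjusted p = 0.00392) and -1.41 relative to Pit1dw/dw (adjusted p = 0.000799). Of the 4 genes measured in its list (Hsd11b1, Hsd11b2, H6pd and Star), Hsd11b1 was the 1 that passed. Of 12 glucocorticoid targets 1 rose in Prop1df/df relative to Pit1+/+, Tsc22d3, by 0.62 (adjusted p = 0.0339). None of the 12 passed limma's test in Pit1dw/dw relative to Pit1+/+, where 6 had an unadjusted p under 0.05, against 8.46% of all genes, and their median change was 0.42, against -0.02 over all genes. The metallothionein genes Mt1 and Mt2, which are also metal-responsive, were lower in Prop1df/df than in Pit1dw/dw, at -0.96 and -1.25, with no change past the threshold relative to Pit1+/+. Corticotroph genes, of the cells on which glucocorticoids act, were measured for 5. Pomc (-0.39) and Pcsk1 (-1.52) were lower in Prop1df/df than in Pit1+/+. The other 3 did not pass, Tbx19 at -0.07, Crhr1 at -0.25 and Avpr1b, dim in all groups, at 0.15. The mean of the 5 spanned 6.86 to 7.11 in Prop1df/df, against 7.14 to 7.76 in Pit1+/+. Relative to Pit1dw/dw 4 of the 5 were lower in Prop1df/df, Pomc, Pcsk1, Tbx19 (-0.74) and Crhr1 (-0.89). Of these 4, Pcsk1 passed without Prop1df/df pools 1, 2 and 3. Without Prop1df/df pools 1, 2 and 3, Hsd11b1 (-0.96, adjusted p = 0.0493) and Pcsk1 (-2.02, adjusted p = 0.00723) still passed relative to Pit1+/+, and Tsc22d3 (0.32) and Pomc (-0.22) did not. Neither metallothionein gene then passed relative to Pit1dw/dw. The part of these cells in the receptor changes was not tested.

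**Figure D3:**
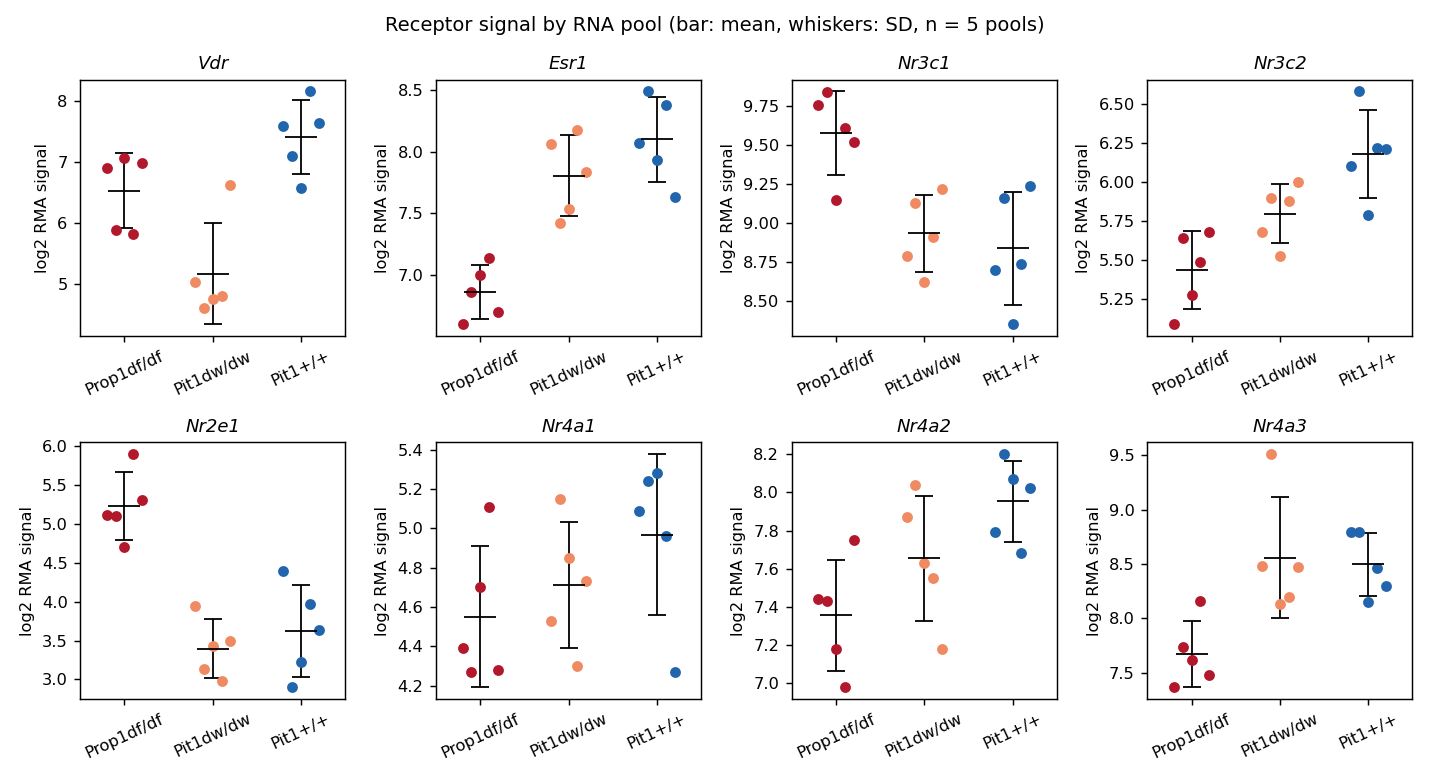
Signal of the 7 receptors that changed in any comparison, and of Nr4a1, in each RNA pool of Prop1df/df, Pit1dw/dw and Pit1+/+ (y axes, log2 RMA signal), with bars at the group mean and whiskers of 1 SD over 5 pools. Prop1df/df pools of Esr1, at 6.60 to 7.14, lie below all other pools and those of Nr2e1, at 4.70 to 5.90, above all other pools.

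Nr2e1 encodes the orphan receptor known as tailless, which maintains neural progenitor cells in the brain and retina. It was the receptor with the largest rise in Prop1df/df. Its signal was 5.12, 5.10, 4.70, 5.90 and 5.31 in Prop1df/df pools 1 to 5, 3.95, 3.13, 3.43, 2.98 and 3.50 in Pit1dw/dw pools, and 4.40, 2.90, 3.22, 3.97 and 3.63 in Pit1+/+ pools. Every Prop1df/df pool lay above all 10 others. The means of the other groups, 3.4 in Pit1dw/dw and 3.62 in Pit1+/+, lay below the array's median signal of 4.37, while Prop1df/df lay above it at 5.23 ± 0.44 (SD, n = 5). Nr2e1 rose by 1.60 relative to Pit1+/+ (95% interval 1.02 to 2.19, limma adjusted p = 0.00139), and by 1.83 relative to Pit1dw/dw (95% interval 1.24 to 2.42, adjusted p = 0.000579). No fold is given, because the probe set was not shown to be above background in either of those groups. Without Prop1df/df pools 1, 2 and 3 these were 1.98 (adjusted p = 0.00756) and 2.21 (adjusted p = 0.00533). In Pit1dw/dw relative to Pit1+/+ the change was -0.23 (adjusted p = 0.918). A second, dimmer probe set was 0.30 higher in Prop1df/df than in Pit1+/+ (adjusted p = 0.136), which did not pass.

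Markers of the neural lobe and hypothalamus, next to which the pituitary lies, were measured for 8 genes. None was higher in Prop1df/df than in Pit1+/+ and 2 were lower (Col25a1 at -0.97 and Oxt at -0.47, of which Col25a1 passed without Prop1df/df pools 1, 2 and 3), and their mean spanned 5.07 to 5.21 in Prop1df/df, 5.12 to 5.24 in Pit1dw/dw and 5.22 to 5.45 in Pit1+/+. Among them Nkx2-1, which marks the floor of the hypothalamus and the neural lobe, lay at 2.72 to 3.27 and Avp at 3.63 to 4.21 over all pools, below the array's median. The Oxt mean was 4.03 in Prop1df/df, also below that median of 4.37, and 4.49 in Pit1+/+, just above it. Of 5 measured stem cell genes Gfra2 fell (-0.58 relative to Pit1+/+, and -0.76 without Prop1df/df pools 1, 2 and 3), and their mean spanned 7.98 to 8.28 in Prop1df/df, 7.97 to 8.29 in Pit1dw/dw and 7.64 to 8.12 in Pit1+/+.

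The other NR2 receptors did not pass the test in the 3 comparisons. Nr2f1, Nr2f2 and Nr2f6 encode the COUP family, repressors with roles in organ and vessel development, and Nr2c1 and Nr2c2 encode the testicular receptors. Over these 5 receptors the changes were -0.13 to 0.47. Nr2f2 had 9.56, 9.29, 8.62, 8.82 and 8.53 in Prop1df/df pools, against 8.55 to 8.99 in Pit1dw/dw and 8.24, 8.48, 8.5, 8.14 and 9.11 in Pit1+/+ pools, a change of 0.47 relative to Pit1+/+ (95% interval 0.03 to 0.91, limma adjusted p = 0.174). One of its 6 probe sets that was not used for the gene was 0.90 higher in Prop1df/df than in Pit1+/+ when every probe set was tested (adjusted p = 0.000827), with means of 5.54 ± 0.28 in Prop1df/df and 4.64 ± 0.18 in Pit1+/+ (SD, n = 5 each). Nr2f6 ranged over 11.09 to 11.57 and Nr2c2 over 9.39 to 9.81 over all 15 pools. Nr5a2, a lipid-binding receptor of liver and early embryo, and Nr6a1, a germ cell and embryo receptor, did not pass either, with changes of -0.21 to 0.14.

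The NR4A receptors are immediate early genes, induced within minutes by hormones and stress and acting without a known ligand, and in corticotrophs they take part in the induction of Pomc. Nr4a3 had 7.37, 7.74, 7.62, 8.16 and 7.48 in Prop1df/df pools 1 to 5, 8.48, 9.51, 8.13, 8.20 and 8.47 in Pit1dw/dw pools, and 8.79, 8.79, 8.15, 8.46 and 8.30 in Pit1+/+ pools. Prop1df/df pool 4, at 8.16, was the pool that overlapped the other groups, and Pit1dw/dw pool 2 stood above the rest of its group. The change was -0.82 relative to Pit1+/+ (95% interval -1.32 to -0.33, limma adjusted p = 0.0337), 1.77-fold lower, and -0.88 relative to Pit1dw/dw (adjusted p = 0.0337). Without Prop1df/df pools 1, 2 and 3 the changes were -0.68 (adjusted p = 0.322) and -0.73 (adjusted p = 0.35). Leaving out Pit1dw/dw pool 2 gave -0.64 relative to Pit1dw/dw (adjusted p = 0.0528).

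Nr4a2 had 7.44, 7.43, 7.18, 6.98 and 7.75 in Prop1df/df pools, 7.87, 8.04, 7.63, 7.55 and 7.18 in Pit1dw/dw pools, and 7.79, 8.20, 8.07, 7.68 and 8.02 in Pit1+/+ pools. Prop1df/df pool 5 was the pool that overlapped Pit1+/+. It was -0.60 in Prop1df/df relative to Pit1+/+ (95% interval -0.96 to -0.23, limma adjusted p = 0.0358), 1.51-fold lower, and -0.59 without Prop1df/df pools 1, 2 and 3 (adjusted p = 0.239). Its call was lost when any of 6 single pools was left out, and that of Nr4a3 relative to Pit1+/+ when any of 7 was. Averaging all probe sets gave -0.30 for Nr4a2 (adjusted p = 0.0519) and -0.30 for Nr4a3 (adjusted p = 0.0611). Nr4a1 had 4.39, 4.27, 4.70, 5.11 and 4.28 in Prop1df/df pools, against 5.09, 5.24, 5.28, 4.96 and 4.27 in Pit1+/+ pools, with change -0.42 (95% interval -0.88 to 0.04, adjusted p = 0.248), and the groups overlapped.

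Of 12 other immediate early genes measured, Jun rose by 0.62 in Prop1df/df relative to Pit1+/+ (adjusted p = 0.00115), and 10 did not pass, with a median change of -0.05 over the 12. Ier2 passed at -0.53 (adjusted p = 0.0281), but its probe set lay below the array's median signal in all groups, at means of 3.45 in Prop1df/df and 3.98 in Pit1+/+, and no fall is read from it. Jun, a subunit of the AP-1 factor, had 10.82, 10.67, 10.59, 10.85 and 10.91 in Prop1df/df pools, against 10.10 to 10.23 in Pit1+/+ pools. Fos, its usual partner, was 7.89 to 8.36 in Prop1df/df and 8.06 to 8.37 in Pit1+/+, and Egr1, a stimulus-induced zinc finger factor, was 11.20 to 11.65 in Prop1df/df and 11.55 to 11.65 in Pit1+/+. Jun was 0.73 higher without Prop1df/df pools 1, 2 and 3 (adjusted p = 0.00925), and Ier2 did not pass (-0.41). In Pit1dw/dw relative to Pit1+/+ 0 of the 12 passed limma's test, and 0 had an unadjusted p under 0.05, against 8.46% of all genes.

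**Figure D4:**
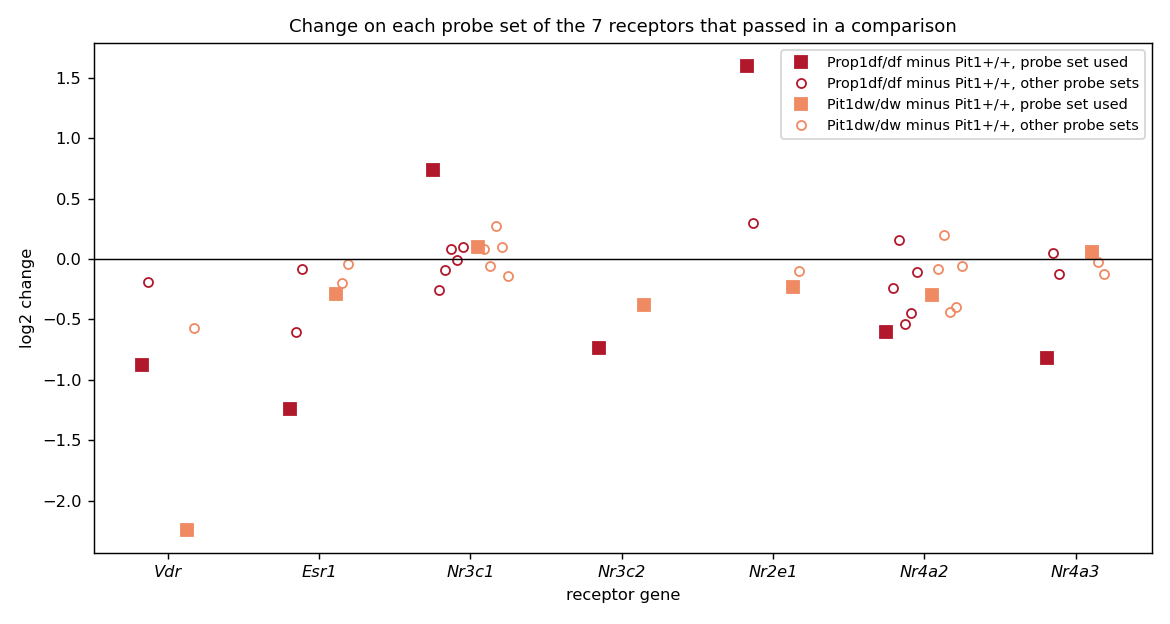
Change on each probe set of the 7 receptors that changed in any comparison (y axis, log2 change; filled squares, the probe set used for the gene; open circles, the others), for Prop1df/df minus Pit1+/+ and Pit1dw/dw minus Pit1+/+. Nr3c1 has 1 square at 0.74 and 5 circles between -0.26 and 0.10 for Prop1df/df, and Nr3c2 has a single probe set.

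The NR1D and ROR receptors compete for the same response elements in the circadian clock, NR1D as repressors and ROR as activators. Nr1d1 (Rev-erb alpha) had 4.78, 5.40, 5.32, 5.58 and 5.47 in Prop1df/df pools, against 5.53 to 5.99 in Pit1dw/dw pools and 5.53 to 5.99 in Pit1+/+ pools, with a single pool of Prop1df/df, pool 4, reaching into the others. Its change of -0.48 relative to Pit1+/+ (95% interval -0.80 to -0.16, limma adjusted p = 0.0544) did not pass. Nr1d2 changed by 0.06 (95% interval -0.36 to 0.48, adjusted p = 0.881), Rora by 0.27 (adjusted p = 0.563) and Rorb by 0.20 (adjusted p = 0.538), and none of the 4 passed in any comparison. Among 14 clock genes, Npas2, a Clock paralog that ROR and NR1D receptors regulate, rose in Prop1df/df. Npas2 had 7.29, 7.27, 6.85, 7.33 and 7.18 in Prop1df/df pools, 6.72, 5.39, 5.94, 6.15 and 5.68 in Pit1dw/dw pools, and 6.20, 5.46, 5.97, 6.25 and 6.06 in Pit1+/+ pools, so that every Prop1df/df pool lay above all others. It rose by 1.20 relative to Pit1+/+ (adjusted p = 0.00178) and by 1.21 relative to Pit1dw/dw (adjusted p = 0.00204), while Cry1 fell by 0.38 relative to Pit1+/+ (adjusted p = 0.0202), and 12 did not pass. Npas2 without Prop1df/df pools 1, 2 and 3 was 1.27 higher than in Pit1+/+ (adjusted p = 0.0301) and Cry1 did not pass (-0.43, adjusted p = 0.113). The hour at which tissue was taken is not given.

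Receptors for lipids and bile acids comprised Nr1h3 (liver X receptor alpha, a sterol sensor), Nr1h4 (bile acid receptor), Nr1i3 (a receptor of foreign compounds) and Ppara, Ppard and Pparg (fatty acid receptors). Nr1h3, Nr1h4, Nr1i3, Ppard and Pparg were among the 9 receptors whose mean lay below 4.37 in all groups, with Esr2, Esrra, Esrrb and Rorb. None of the 9 passed limma's test in any comparison, with changes of -0.55 to 0.48. An unadjusted p under 0.05 was found for 1 of the 9 in Pit1dw/dw and 0 in Prop1df/df relative to Pit1+/+, against 8.46% and 24.4% of all genes. Between Prop1df/df and Pit1dw/dw it was found for 1, against 20.1% of all genes. Esrrb was the receptor each time. Ppara had 5.00, 4.73, 4.46, 4.55 and 4.5 in Prop1df/df pools, against 4.33, 3.89, 4.23, 4.42 and 4.41 in Pit1+/+ pools, which did not overlap, and its change of 0.39 did not pass (95% interval 0.11 to 0.67, limma adjusted p = 0.0766). Of 14 measured sterol and lipid targets, Acadm, a fatty acid oxidation enzyme, rose in Prop1df/df by 0.74 relative to Pit1+/+ (adjusted p = 0.00919) and Cpt1a, which carries fatty acids into mitochondria, fell by 0.35 (adjusted p = 0.0352), and 12 did not pass. Neither passed without Prop1df/df pools 1, 2 and 3 (Acadm at 0.66 and Cpt1a at -0.28).

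The estrogen-related receptors Esrra, Esrrb and Esrrg, regulators of energy metabolism that do not bind estrogen, did not pass in any comparison. Esrrb had 3.15, 3.05, 2.77, 2.89 and 2.94 in Prop1df/df pools, against 3.18, 3.98, 3.41, 3.53 and 3.45 in Pit1dw/dw pools, which did not overlap, with a change of -0.55 (limma adjusted p = 0.0775). Esrrg had 5.87, 6.13, 5.92 and 6.12 in Pit1dw/dw pools 1 to 4 and 7.71 in pool 5, against 5.71 to 6.49 in Pit1+/+ pools, so 1 pool set its spread. Esrra ranged over 3.64 to 4.38 across all pools.

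Outside the 31 receptors, 14 of 17 further nuclear receptor genes were measured. In Pit1dw/dw relative to Pit1+/+ 2 of them rose, Nr0b1 by 1.81 (adjusted p = 0.00187) and Nr5a1 by 1.38 (adjusted p = 0.00384), which encode factors of gonadotrophs and steroid-making cells, and Rxrg, a retinoid X receptor gene, changed by -2.27 (adjusted p = 0.000947). In Prop1df/df relative to Pit1+/+ Rxrg alone of the 14 passed, at -1.91 (adjusted p = 0.000556), and at -2.35 without Prop1df/df pools 1, 2 and 3. Relative to Pit1dw/dw Nr0b1 was -1.72 and Nr5a1 -1.08 in Prop1df/df, both past the threshold, and without those pools Nr0b1 passed and Nr5a1 did not. Of 6 endothelial genes, Plvap was lower in Prop1df/df, at -0.80 relative to Pit1+/+ (adjusted p = 0.0447).

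Partners of the receptors were counted next. Of 15 measured coregulators 1 passed, the coactivator gene Ncoa1, which steroid receptors recruit. Ncoa1 had 9.15, 9.21, 9.01, 9.36 and 9.07 in Prop1df/df pools, 9.43, 9.61, 9.58, 9.67 and 9.64 in Pit1dw/dw pools, and 9.40, 9.77, 9.44, 9.59 and 9.85 in Pit1+/+ pools, with no Prop1df/df pool above any other pool. Its change was -0.45 relative to Pit1+/+ (adjusted p = 0.0137) and -0.43 relative to Pit1dw/dw (adjusted p = 0.0266), and without Prop1df/df pools 1, 2 and 3 these were -0.39 and -0.37, neither of which passed. Of 7 measured chaperones, the heat shock proteins and immunophilins that hold steroid receptors ready for ligand, 0 passed limma's test in any comparison. From these 7, 1 had an unadjusted p under 0.05, Fkbp5 in Pit1dw/dw relative to Pit1+/+, against 8.46% of all genes there. Fkbp5 is also among the glucocorticoid targets already counted above with such a p. Median changes in Prop1df/df relative to Pit1+/+ were -0.12 for coregulators and -0.14 for chaperones, against -0.039 over all genes. In total 7 of the 30 receptors changed in at least 1 comparison and 23 did in none, and the changes of those 23 ranged from -0.55 to 0.48. The SD over the 5 pools of a group had a median over the 30 receptors of 0.29 in Prop1df/df, 0.24 in Pit1dw/dw and 0.30 in Pit1+/+, and was largest for Vdr in Pit1dw/dw at 0.83.

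**Figure D5:**
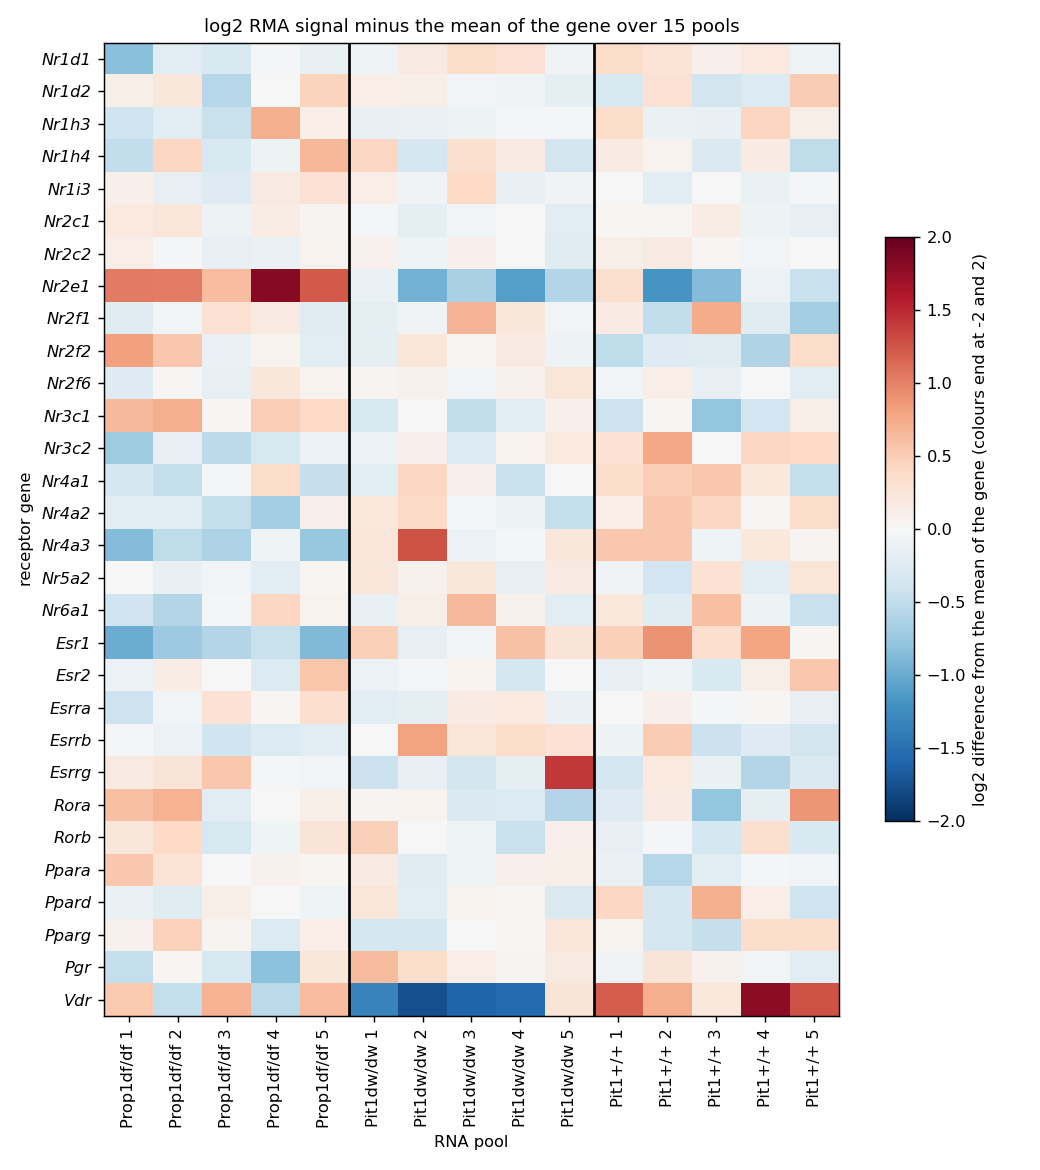
Signal of the 30 measured receptors (rows) in 15 RNA pools (columns), as the log2 difference from each gene's mean over all pools, on a colour scale that ends at -2 and 2. The Prop1df/df columns differ from the rest for Nr2e1 and Esr1, and Vdr is lowest in Pit1dw/dw pools 1 to 4.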

How the data were processed

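Total pituitary RNA of 15 pools, 5 per group, was labelled with biotin and hybridised to Affymetrix whole-genome mouse arrays, per the labels' protocols. The deposited values are log2 signals made with RMA by the authors, per the submitters' processing notes, and the version of RMA is not stated in the labels. They ran from 1.83 to 14.83, with array medians of 4.31 to 4.43, and were used as deposited. The number of arrays limits the precision. Of 45037 probe sets other than controls, 34945 had 1 gene in the platform annotation, 932 had several and 9160 had none. Each gene was read from its probe set of highest mean over all arrays (9010 genes had more than 1), which left 18193 genes.

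Groups were compared with limma 3.58.1 in R 4.3.3 (lmFit and eBayes, 3 group means, two-sided), with Benjamini-Hochberg adjustment over all genes and a threshold of 0.05. The script was tested on simulated data. Alternatives were other probe sets per gene, centring or quantile normalization, array weights, covariates, left-out pools and the replicate number as a block. Members and lists were chosen with earlier results of these data known. All receptors are named, and of each other list up to 4 genes past the threshold per comparison, those of smallest adjusted p. Nothing in the labels says that pools came from separate litters, so p-values measure the spread between these pools.

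Pool numbers are those of the titles. After subtracting group means, pools with the same number correlated at -0.309 to 0.674, so the numbers were not taken to pair the pools. Motifs were searched in Python 3.11.15 and figures drawn with matplotlib 3.10.9.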

Additional observations from a re-analysis of the deposited data

Results flagged for a closer look

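In 3 of 90 receptor groups of 5 pools, 1 pool stood apart from the rest by more than Dixon's 95% critical value, where chance gives about 1 in 20. All 3 were in Pit1dw/dw. Vdr was 6.62 in pool 5, and the next highest pool was 5.03. Esrrg was 7.71 in the same pool, and the next was 6.13. Nr4a3 was 9.51 in pool 2, and the next was 8.48.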

How the results depend on the processing

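Each call was recomputed under 31 alternatives, and no called receptor changed sign under any of them. Nr2e1 kept its calls in Prop1df/df relative to both groups and Esr1 relative to Pit1+/+ under all 31. Vdr in Pit1dw/dw relative to Pit1+/+ was lost under 1, and Nr3c2 in Prop1df/df relative to Pit1+/+ under 1. The lost calls relative to Pit1+/+ were 3 for Nr3c1, 11 for Nr4a2 and 11 for Nr4a3, and relative to Pit1dw/dw 2 for Esr1, 17 for Nr3c1, 13 for Nr4a3 and 17 for Vdr. Vdr in Prop1df/df relative to Pit1+/+ was gained with array weights (-1.32, adjusted p = 0.0217) and with the bone covariate (-1.63, adjusted p = 0.00935). The cause of these losses and gains was not tested. Adjusted p over the alternatives, for Prop1df/df relative to Pit1+/+, ran from 8.4e-05 to 0.0202 for Esr1, 0.000655 to 0.028 for Nr2e1, 0.000615 to 0.644 for Nr3c1, 0.000917 to 0.113 for Nr3c2, 0.0202 to 0.288 for Nr4a2 and 0.00359 to 0.322 for Nr4a3. Relative to Pit1dw/dw they ran from 0.00201 to 0.107 for Esr1, 0.000129 to 0.0199 for Nr2e1, 0.00541 to 0.903 for Nr3c1, 0.0207 to 0.35 for Nr4a3 and 0.00432 to 0.43 for Vdr, and for Vdr in Pit1dw/dw relative to Pit1+/+ from 0.000567 to 0.0925.

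For Pit1dw/dw relative to Pit1+/+ (140 genes and 1 receptor), array weights gave 571 genes and 2 receptors, leaving out pools of high Prph gave 51 and 0, and leaving out Pit1+/+ pool 1 and Pit1dw/dw pool 5 together gave 62 genes; without single pools the counts ran from 83 to 161 genes and stayed at 1 receptor, with 83, 93 and 90 genes without Pit1dw/dw pools 2, 4 and 5 and 86 without either Pit1+/+ pool 2 or pool 4. For Prop1df/df relative to Pit1+/+ (1920 and 6), array weights gave 4297 and 10, the bone covariate 792 genes, the ganglion covariate 2888 genes, averaging all probe sets of a gene 3 receptors, and leaving out Prop1df/df pools 1, 2 and 3 gave 890 and 2; without single pools the range was 1401 to 3258 genes and 4 to 10 receptors, the highest of both without Pit1+/+ pool 5. For Prop1df/df relative to Pit1dw/dw (1139 and 5), array weights gave 2390 genes, the bone covariate 528 and 1, leaving out pools of high Prph 746 and 3, leaving out Prop1df/df pools 1, 2 and 3 gave 503 and 1, the Xist covariate 2 receptors, centring each array 3, averaging all probe sets 2, and leaving out the 2 named pools together 3; without single pools the range was 826 to 1578 genes and 2 to 5 receptors, with 2 without Prop1df/df pool 1, Pit1dw/dw pool 1 or Pit1dw/dw pool 2, and 3 without Prop1df/df pools 2, 3 or 5, Pit1dw/dw pools 3 or 4, or Pit1+/+ pool 1. Over all genes, averaging all probe sets gave 1757 genes in Prop1df/df relative to Pit1+/+ and 1066 relative to Pit1dw/dw. Relative to Pit1dw/dw the Xist covariate gave 839 genes, centring 1239 and leaving out the 2 named pools together 843. The settings with the bone covariate, with the 2 pools left out together and without Prop1df/df pools 1, 2 and 3 were chosen after seeing the data.

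With the replicate number as a block, the pairing gave 137, 2138 and 1313 genes and 1, 6 and 6 receptors in the 3 comparisons. A pool correlated best with its own number in 2 of 5 pools for each pair of groups. Dim receptors, whose signal lay below the array's median in all groups, give no reading of a fall.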
